A study of Mus musculus with 8 samples.

Results

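The 8 genes described here, *Zscan4c*, *Zscan4d*, *Zscan4f*, *Zfp352*, *Tcstv1*, *Tcstv3*, *Usp17la* and *Usp17lc*, are known from the two-cell stage of the mouse embryo. They were chosen by symbol, and all 8 were present among the 24542 gene symbols measured by RNA-seq in TX1072, a female mouse embryonic stem cell (ESC) line from a cross of *Mus musculus castaneus* (Cast) and C57BL/6 (B6) in which doxycycline (DOX) switches on *Xist*. The parental line (*Hdac3*+/+) and 2 CRISPR/Cas9 deletion clones derived from it (*Hdac3*-/-) were cultured in LIF and 2i on gelatin and collected before DOX (0 hr) or after 24 hr at 1 μg/ml, with 2 samples in each of 4 groups. All groups carry the inducible *Xist*, so the genotypes differ in *Hdac3* and in having passed through single-cell cloning. For *Hdac3*+/+ a single line was sampled in duplicate. The *Hdac3*-/- samples are numbered 1 and 2 at each time, and GEO's labels do not say which clone each number stands for, so the samples are called replicate 1 and replicate 2 below. The study's methods also mention XO cells in a mutant sample used for ChIP-seq.

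A small share of ESCs in culture passes for a time through a state that resembles the two-cell embryo. In these cells the transcription factor DUX and its targets are switched on, among them the *Zscan4* genes, which encode SCAN-domain zinc finger proteins known for telomere maintenance. *Zfp352* encodes another zinc finger protein, the *Tcstv* genes encode small proteins named for their variable expression at the two-cell stage, and the *Usp17l* genes encode deubiquitinating enzymes. Because RNA was measured from whole cultures, fewer cells in this state and less RNA per cell cannot be told apart in any value below.

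The samples held between 6940375 and 17125156 counted reads, so that 1 read equals 0.0584 to 0.144 CPM (the reads of a gene scaled to a common library size). *Hdac3*, the targeted gene, had 39.4 to 43.4 CPM in the 4 *Hdac3*+/+ samples and 5.54 to 7.22 CPM in the 4 *Hdac3*-/- samples. *Xist* rose from 7.25 to 17.1 CPM at 0 hr to 1534 to 2050 CPM at 24 hr. The ESC markers were *Pou5f1*, *Nanog*, *Sox2*, *Zfp42*, *Klf4*, *Esrrb* and *Tfcp2l1*. They summed to 4279 to 4498 CPM in *Hdac3*+/+ and 4767 to 5000 CPM in *Hdac3*-/-. Between genotypes 0 of 7 were called at either time, against 6.14% of all genes tested at 0 hr and 5.1% at 24 hr. *Nanog* (0.675 ± 0.10 on the log2 scale at 0 hr, edgeR adjusted p = 0.00494) and *Zfp42* (0.695 ± 0.12, edgeR adjusted p = 0.00895) were under the adjusted p threshold of 0.05 at both times and missed only the fold threshold described below.

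Several of the 8 genes are near-identical copies, and this limits what can be said of each one. By the GENCODE M21 annotation of GRCm38, *Zscan4c* lies at chr7:11005745-11010547 (plus strand), *Zscan4d* at chr7:11161374-11166159 (minus strand) and *Zscan4f* at chr7:11397915-11402318 (plus strand), and the coding sequences of *Zscan4c* and *Zscan4f* are 99.6% identical over 1518 bases. *Zscan4d* is 97.7% identical to each of them. The first 120 coding bases are shown for the 3 genes to make this visible, read from the GENCODE transcripts, with capitals marking bases that do not match *Zscan4c*. *Zscan4f* cannot be told from *Zscan4c* in this stretch, and *Zscan4d* differs from it at 3 bases.
*Zscan4c*, chr7:11006556-11006675: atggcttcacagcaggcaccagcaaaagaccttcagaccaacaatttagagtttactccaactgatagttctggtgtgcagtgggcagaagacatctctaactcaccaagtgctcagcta
*Zscan4d*, chr7:11165229-11165348: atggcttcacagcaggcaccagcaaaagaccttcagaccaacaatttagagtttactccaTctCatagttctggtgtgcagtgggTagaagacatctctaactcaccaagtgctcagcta
*Zscan4f*, chr7:11398749-11398868: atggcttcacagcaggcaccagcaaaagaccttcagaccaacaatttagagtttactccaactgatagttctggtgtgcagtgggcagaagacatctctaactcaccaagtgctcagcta

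The other pairs differ more. *Tcstv1* (chr13:119893388-119894785, minus strand) and *Tcstv3* (chr13:120316878-120318178, plus strand) are 93.6% identical in coding sequence, and *Usp17la* (chr7:104857009-104862667, plus strand) and *Usp17lc* (chr7:103415072-103419880, plus strand) are 90.6% identical. *Zfp352* (chr4:90218820-90225702, plus strand) has no such partner in the list. The coding starts of the *Usp17l* pair are shown with capitals where *Usp17lc* does not match *Usp17la*, which is at 10 of 120 bases, and each of these stretches spans an intron.
*Usp17la*: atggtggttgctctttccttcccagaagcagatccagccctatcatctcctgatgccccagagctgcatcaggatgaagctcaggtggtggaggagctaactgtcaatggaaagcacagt
*Usp17lc*: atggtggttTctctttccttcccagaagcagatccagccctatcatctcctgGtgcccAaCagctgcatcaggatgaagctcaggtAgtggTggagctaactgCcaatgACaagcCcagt

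To see how much of each transcript a read could share with another gene, every 100-base window of the longest coding transcript was searched for in all GENCODE transcripts. Of the windows of *Zscan4f*, 89.5% also occurred in a transcript of another gene, as did 72.8% of those of *Zscan4c*, 32.3% of *Usp17lc* and 29.6% of *Zscan4d*. The share was 7.8% for *Tcstv3*, 4.1% for *Tcstv1*, 3.8% for *Usp17la* and 0.6% for *Zfp352*. The authors kept 1 alignment per read, so reads of the *Zscan4* genes may have been split among copies, and the sum of *Zscan4c*, *Zscan4d* and *Zscan4f* is given beside the single genes.

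**Figure D1:**
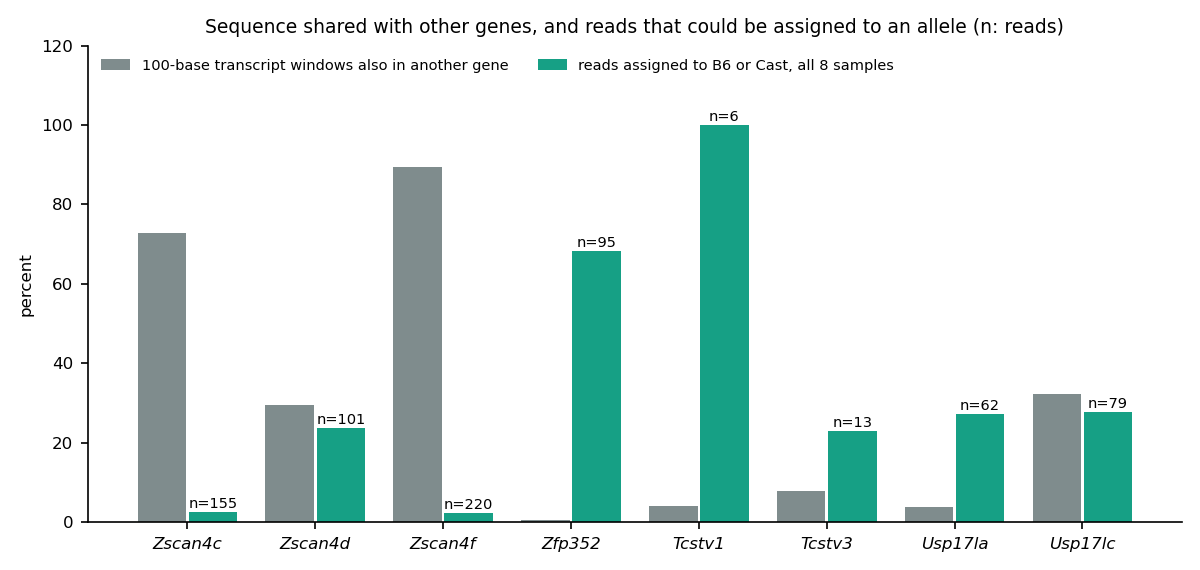
For each of the 8 genes, grey bars give the percent of 100-base transcript windows that also occur in another gene, and green bars give the percent of reads assigned to B6 or Cast over all 8 samples, with the number of reads above. *Zscan4c* and *Zscan4f* have the highest shares of shared windows (72.8% and 89.5%) and the lowest shares of allelic reads (2.6% and 2.3%).

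The share of reads that could be assigned to an allele also differed among the genes. Over all 8 samples, 65 of 95 *Zfp352* reads (68.4%) were allelic, and 29 of these were B6 (44.6%, exact Clopper-Pearson 95% interval 32.3% to 57.5%). The interval for *Zfp352* includes equal reading of both alleles. Only 4 of 155 *Zscan4c* reads and 5 of 220 *Zscan4f* reads were allelic, against 24 of 101 for *Zscan4d*, of which 18 were B6 (75.0%, 53.3% to 90.2%). For *Usp17la* and *Usp17lc* together 18 of 39 allelic reads were B6 (46.2%, 30.1% to 62.8%). All 6 *Tcstv1* reads were B6. These intervals cover counting error only.

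The promoters of the 3 *Zscan4* genes share one feature that the choice of genes did not use. The motif known for DUX, with any base at its central positions, was searched on both strands in the 250 bases before the start of each gene in RefSeq (GRCm38.p6), which held 6 of the 8 genes. It occurred in *Zscan4c*, *Zscan4d* and *Zscan4f*, 114, 125 and 91 bases upstream, and in 58 of 32851 promoters overall (0.177%). The 3 promoters are copies of one another, so these are not independent matches. The matches are shown 5′ to 3′ along each gene, with the match, which reads on the opposite strand, in capitals.
*Zscan4c*, chr7:11005606-11005665, plus strand: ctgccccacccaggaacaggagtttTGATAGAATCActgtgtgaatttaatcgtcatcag
*Zscan4d*, chr7:11166239-11166298, minus strand: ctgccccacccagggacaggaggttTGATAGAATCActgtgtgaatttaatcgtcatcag
*Zscan4f*, chr7:11397799-11397858, plus strand: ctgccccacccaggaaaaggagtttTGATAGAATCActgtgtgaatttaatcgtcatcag

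All 8 genes were expressed at low levels in the parental line. Levels between genes were compared per length, as TPM (reads per transcript length, scaled to a common total), in *Hdac3*+/+ at 0 hr. *Zscan4f* was highest with 6.89 ± 0.436 TPM (SD, n = 2), above both samples of every other member. *Zscan4c* (4.15 ± 2.14 TPM), *Zscan4d* (3.14 ± 1.08 TPM) and *Zfp352* (3.07 ± 1.18 TPM) followed, and their samples overlapped. The levels and order of the single *Zscan4* copies may depend on where reads common to them were placed. *Usp17lc* had 1.84 ± 0.869 TPM, *Tcstv3* 1.13 ± 0.037 TPM and *Usp17la* 0.942 ± 0.264 TPM. The lower sample of *Usp17lc* (1.222 TPM) lay only slightly above the highest of *Tcstv3* (1.155 TPM) and *Usp17la* (1.129 TPM). The samples of *Tcstv3* and *Usp17la* overlapped. *Tcstv1* was lowest, with 0 and 0.429 TPM from 0 and 2 reads.

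To ask whether loss of *Hdac3* changed the two-cell genes, the genotypes were compared at each time. The values are given as CPM in the order of replicate 1 and replicate 2. *Zscan4c* had 3.50 and 1.69 CPM in *Hdac3*+/+ at 0 hr and 2.94 and 1.87 CPM at 24 hr, against 1.93 and 0 CPM in *Hdac3*-/- at 0 hr and 1.14 and 0.197 CPM at 24 hr. *Zscan4d* had 2.41 and 1.52 CPM and then 1.72 and 2.16 CPM in *Hdac3*+/+, against 0.759 and 0 CPM and then 0.527 and 0.099 CPM in *Hdac3*-/-. *Zscan4f* had 3.50 and 3.96 CPM and then 3.14 and 3.60 CPM in *Hdac3*+/+, against 2.45 and 0.332 CPM and then 2.20 and 0.099 CPM in *Hdac3*-/-. In all 3 genes replicate 2 of *Hdac3*-/- was near 0 at both times, with 0 to 4 reads, while replicate 1 kept 6 to 42 reads. The genotypes did not overlap at either time for *Zscan4d* and *Zscan4f*, and overlapped at 0 hr for *Zscan4c*. Their sum was 9.40 and 7.17 CPM and then 7.80 and 7.64 CPM in *Hdac3*+/+, against 5.14 and 0.332 CPM and then 3.87 and 0.394 CPM in *Hdac3*-/-.

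*Zfp352* had the same order of samples. It had 2.41 and 1.43 CPM at 0 hr and 1.22 and 1.15 CPM at 24 hr in *Hdac3*+/+, against 1.11 and 0.249 CPM and then 0.352 and 0.099 CPM in *Hdac3*-/-, and the genotypes did not overlap at either time. *Usp17lc* had 1.63 and 0.843 CPM and then 1.22 and 1.15 CPM in *Hdac3*+/+, against 1.11 and 0.083 CPM and then 0.703 and 0 CPM in *Hdac3*-/-. Its genotypes overlapped at 0 hr. *Usp17la* differed from the other members in that replicate 1 of *Hdac3*-/- was the highest sample at each time: it had 0.544 and 0.843 CPM and then 0.709 and 0.720 CPM in *Hdac3*+/+, against 0.876 and 0.332 CPM and then 0.879 and 0.394 CPM in *Hdac3*-/-. The *Tcstv* genes had 0 to 3 reads in every sample, and *Tcstv3* had 0.117 and 0 CPM and then 0.088 and 0 CPM in *Hdac3*-/- against 0.144 to 0.304 CPM in *Hdac3*+/+. At this depth a sample with 0 reads allows up to 0.233 to 0.432 CPM (3 reads), and a difference in *Tcstv1* or *Tcstv3* was not detectable.

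**Figure D2:**
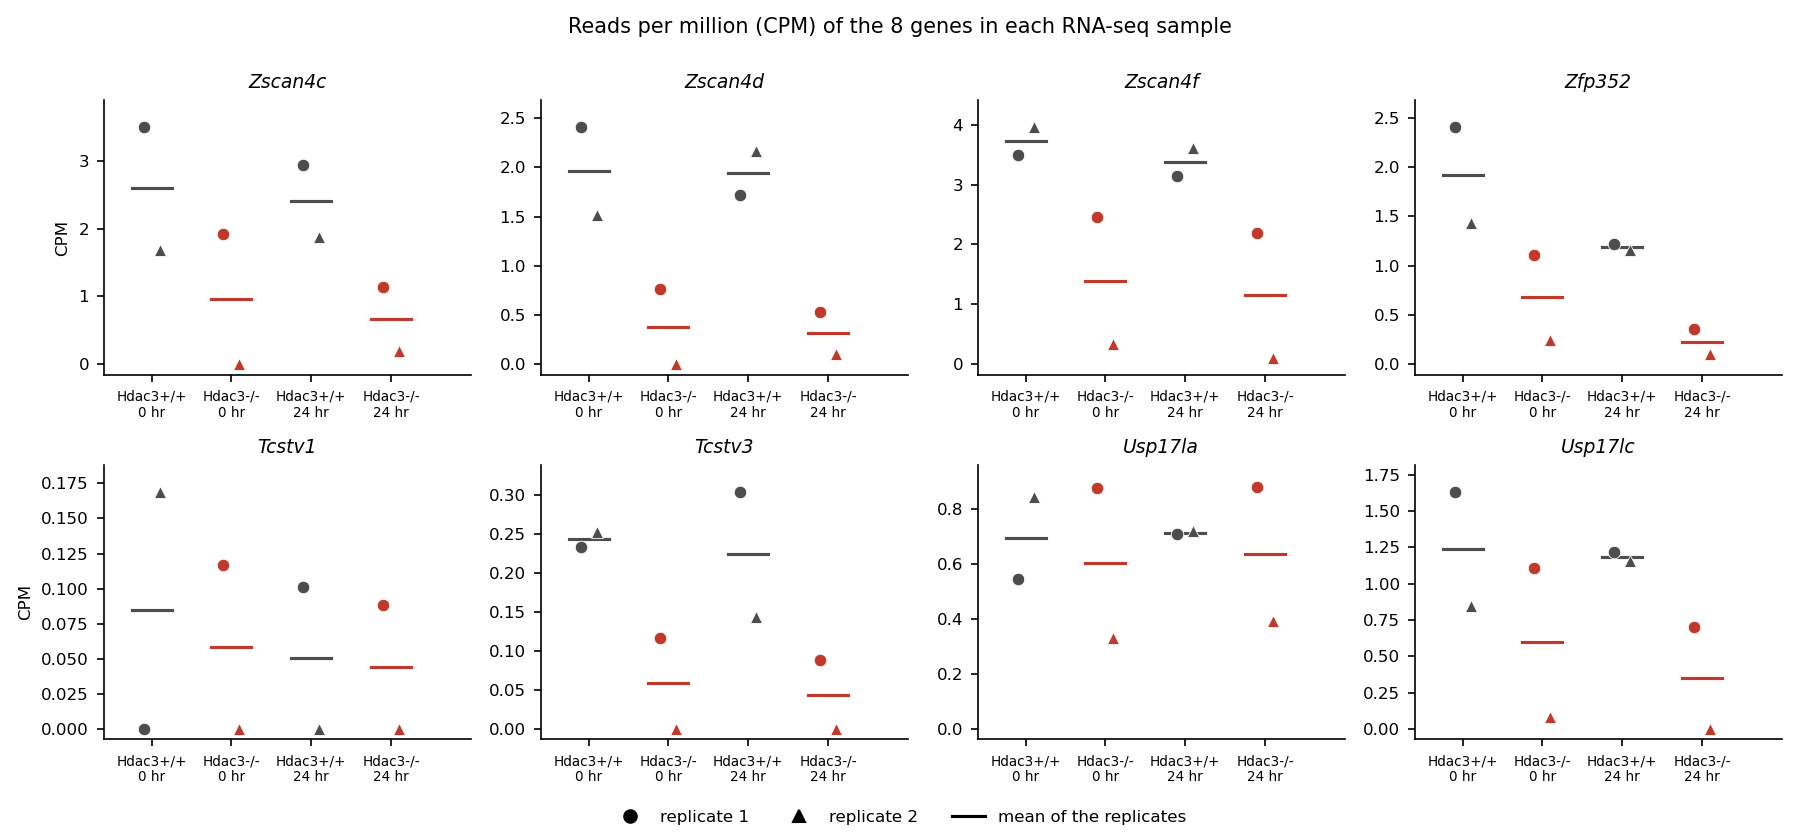
Each panel shows the CPM of a gene in the 8 samples, with circles for replicate 1, triangles for replicate 2 and lines for the mean of each group (grey *Hdac3*+/+, red *Hdac3*-/-). Each vertical axis has its own range. The red triangles lie at 0 to 0.394 CPM in every panel and below the red circles at both times.

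No member passed the test between genotypes. The test was the quasi-likelihood F test of edgeR, and a gene was called at a Benjamini-Hochberg adjusted p under 0.05 over all genes and an absolute log2 fold change above 1. At 0 hr 0 of the 7 members tested were called, against 6.14% of all genes tested (3.56% lower), and at 24 hr 0 of 7, against 5.1% (2.8% lower). At an unadjusted p under 0.05 the counts were 1 (*Zscan4d*) and 2 (*Zscan4d* and *Zfp352*). The share of all genes under this unadjusted p was not counted, so these counts are not read as a result about the members. DESeq2 and voom with limma also called 0 members at both times. *Tcstv1* did not pass the filter on low values, and *Tcstv3* passed only through *Hdac3*+/+ samples. At 0 hr the other 6 exceeded a TPM of 1 in replicate 1 of *Hdac3*-/- but not in replicate 2. As the filter asked for 2 samples, these 6 also needed *Hdac3*+/+ samples to pass at 0 hr. The median log2 fold change of the 7 was -1.255 at 0 hr and -1.79 at 24 hr, and -1.238 and -1.714 for the 6 without *Tcstv3*, beside 0.002 and 0.005 over all genes tested. The members share samples and reads, so these medians are a description.

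The fitted differences had wide standard errors. *Zscan4d* had the largest difference at both times, with a log2 fold change of -2.11 ± 0.84 (SE) at 0 hr (adjusted p = 0.137) and -2.51 ± 0.98 at 24 hr (adjusted p = 0.129). *Zfp352* differed by -1.32 ± 0.63 at 0 hr (adjusted p = 0.204) and -2.28 ± 0.86 at 24 hr (adjusted p = 0.118). The *Zscan4* sum differed by -1.44 ± 0.73 at 0 hr (adjusted p = 0.235) and -1.795 ± 0.94 at 24 hr (adjusted p = 0.248). Without a filter on low values the same sum passed the test at both times (edgeR adjusted p = 3.67e-05 and 2.24e-06). There it differed by -1.435 ± 0.30 at 0 hr and -1.793 ± 0.33 at 24 hr. The fold changes thus hardly moved, and the lower p came with a smaller fitted SE. With the filter, the log2 fold change of the sum at 0 hr was -4.52 without replicate 1 of *Hdac3*-/- and -0.61 without replicate 2. Each of these 2 values rests on 1 remaining *Hdac3*-/- sample. *Usp17la* lay closest to 0, at -0.05 ± 0.65 and -0.12 ± 0.70. An adjusted p above the threshold does not show that the genotypes had equal levels, and the SE of the 7 members was 0.63 to 1.45 on the log2 scale.

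The count at 0 hr changed without replicate 1 of *Hdac3*-/-. Then 5 of 6 members tested were called lower (*Zscan4c*, *Zscan4d*, *Zscan4f*, *Zfp352* and *Usp17lc*), against 6.9% of the 13062 genes tested, with the lone remaining *Hdac3*-/- sample taken to vary like the *Hdac3*+/+ samples. Without replicate 2 of *Hdac3*-/-, 0 members were called at 0 hr, against 4.12% of genes called lower. Without a filter on low values, 2 members (*Zscan4d* and *Zscan4f*) were called lower at 0 hr, against 3.52% of genes, and 4 at 24 hr (*Zscan4c*, *Zscan4d*, *Zscan4f* and *Zfp352*), against 2.85%.

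**Figure D3:**
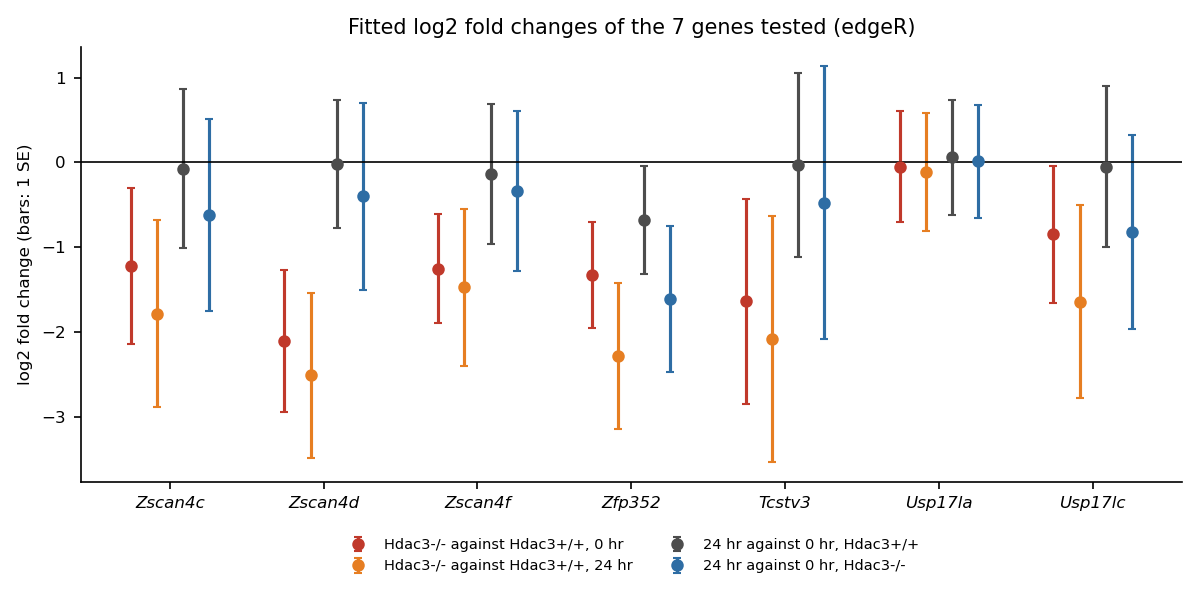
Points are edgeR log2 fold changes of the 7 genes tested and bars 1 SE, for *Hdac3*-/- against *Hdac3*+/+ at 0 and 24 hr and for 24 hr against 0 hr in each genotype. The genotype differences reach from -0.05 to -2.51, and 0 of them passed the test.

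The *Hdac3*-/- replicates differed from each other in most members. This split was seen in the values and is given as a description with no test. Each *Hdac3*-/- sample was set against the pooled *Hdac3*+/+ samples of the same time, with an exact 95% interval for counting error. The *Zscan4* sum of replicate 1 was 61.7% of *Hdac3*+/+ at 0 hr (47.5% to 79.5%) and 50.0% at 24 hr (34.7% to 70.9%). In replicate 2 it was 4.0% at 0 hr (1.07% to 10.4%) and 5.1% at 24 hr (1.37% to 13.4%), from 4 reads at each time.

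The single genes had the same order. *Zscan4c* had 0 reads in replicate 2 at 0 hr, which against 3 reads is at least 10.56-fold lower than *Hdac3*+/+, and *Zscan4d*, also at 0, was at least 7.96-fold lower. *Zfp352*, the member with the least shared sequence, had 57.2% of the *Hdac3*+/+ level in replicate 1 at 0 hr (31.7% to 99.1%) and 12.8% in replicate 2 (2.55% to 39.8%). At 24 hr it had 29.6% (7.35% to 88.2%) and 8.3% (0.2% to 51.8%). The intervals of the replicates overlap at both times. *Usp17lc* had 88.5% in replicate 1 at 0 hr (47.2% to 162%) and 6.6% in replicate 2 (0.162% to 39.7%). *Usp17la*, from 4 to 15 reads a sample, had 127.4% and 48.3% at 0 hr and 123.2% and 55.2% at 24 hr, each interval reaching across 100%.

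**Figure D4:**
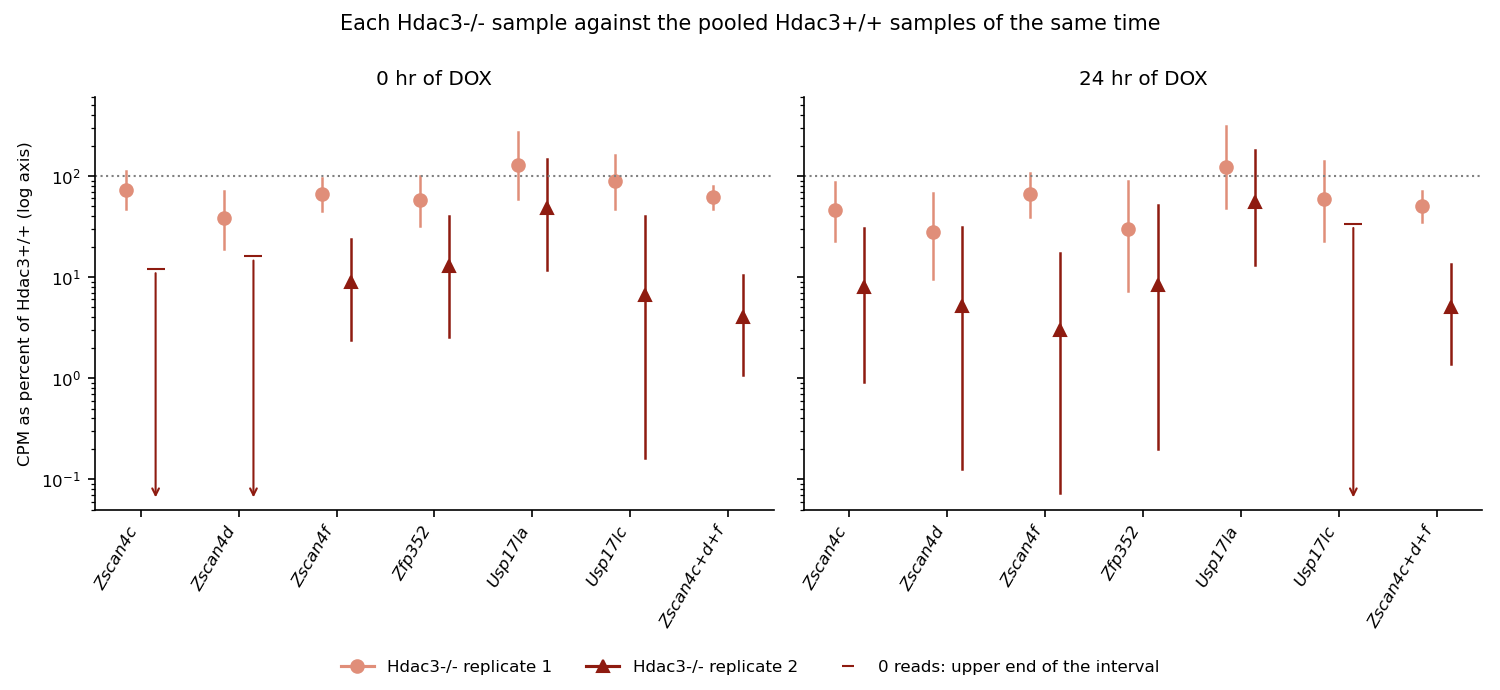
CPM of each *Hdac3*-/- sample as percent of the pooled *Hdac3*+/+ samples of the same time, on a log axis, with exact 95% intervals for counting error and the dotted line at equal level. Arrows mark samples with 0 reads, and the *Tcstv* genes are left out for their 0 to 3 reads a sample. For the *Zscan4* sum, replicate 1 lies at 61.7% and 50.0% and replicate 2 at 4.0% and 5.1%.

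To place this split among all genes, the replicates were compared within each genotype. Counts of the order of samples are given for the 6 members other than the *Tcstv* genes, which had at most 3 reads in every sample. Counts of 4-fold differences are given for the 7 members tested, which include *Tcstv3*. Replicate 2 of *Hdac3*-/- lay below replicate 1 at both times for 6 of 6, against 33.1% of the 14051 genes tested. With samples of 0 reads set to 3 reads, it lay more than 4-fold below replicate 1 at both times for 2 of the 7 members tested (*Zscan4c* and *Zscan4f*), against 0.285% of genes. These 2 share most of their sequence and may share reads, so they are not independent. The shares of genes given here and below are over all genes tested and are not matched for read count. With 0 reads taken as 0 the count was 5 of 7 (*Zscan4c*, *Zscan4d*, *Zscan4f*, *Tcstv3* and *Usp17lc*), against 0.655%. For *Zscan4d*, *Tcstv3* and *Usp17lc* a difference of this size thus rests on samples with 0 reads. *Tcstv3* had at most 2 reads in any *Hdac3*-/- sample, where a difference was not detectable. In *Hdac3*+/+ the count was 0 of 7 either way, against 0.0498% and 0.527% of genes. More than 4-fold above replicate 1 at both times were 0 of 7 members in *Hdac3*-/- (background 0.256%) and 0 of 7 in *Hdac3*+/+ (background 0.164%). Replicate 2 of *Hdac3*-/- lay below all 4 *Hdac3*+/+ samples for 6 of 6 members (background 31.2%), and replicate 1 for 3 of 6 (*Zscan4d*, *Zscan4f* and *Zfp352*, background 28.7%), so that these 3 of 6 had replicate 2 below replicate 1 below all *Hdac3*+/+ samples (background 6.85%). At single times, the *Hdac3*-/- samples were both below both *Hdac3*+/+ samples for 3 of 6 members at 0 hr (background 37.1%) and 5 of 6 at 24 hr (background 31.1%). *Hdac3* itself had 5.72 and 5.54 CPM in replicate 1 at 0 and 24 hr and 7.22 and 6.90 CPM in replicate 2. Its part in the split was not tested.

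To ask whether the members changed as *Xist* was induced, 24 hr was compared with 0 hr within each genotype. No member was called in *Hdac3*+/+ (0 of 7, against 0.0569% of genes, 0.0498% lower and 0.00712% higher) or in *Hdac3*-/- (0 of 7, against 0.0142%, 0.00712% in each direction), and at an unadjusted p under 0.05 the counts were 0 and 0. The *Zscan4* sum differed by -0.09 ± 0.83 in *Hdac3*+/+ and -0.425 ± 0.96 in *Hdac3*-/- on the log2 scale. *Zfp352* had the largest fitted change in both genotypes, at -0.68 ± 0.64 (adjusted p = 0.934) and -1.61 ± 0.86 (adjusted p = 1). The difference between the genotypes' changes was tested as an interaction, which called 0 of 7 members and 0.0% of genes, with 0 members at an unadjusted p under 0.05. For these comparisons too, the share of all genes under the unadjusted threshold was not counted.

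The nearest relatives of these genes were also read. Of 18 further copies of these families listed, 7 were in the tables and 4 were tested. At either time 0 were called, against 6.14% of all genes tested at 0 hr and 5.1% at 24 hr. *Zscan4b*, the copy with the most reads, had 12.6 and 9.95 CPM at 0 hr and 10.9 and 9.22 CPM at 24 hr in *Hdac3*+/+, against 8.82 and 0.415 CPM and then 7.65 and 0.493 CPM in *Hdac3*-/-. *Zscan4a* had 3.11 and 1.77 CPM and then 2.84 and 2.31 CPM, against 1.81 and 0.249 CPM and then 1.41 and 0.197 CPM. Replicate 2 of *Hdac3*-/- was the lowest sample in both, and replicate 1 lay below both *Hdac3*+/+ samples of its time in *Zscan4b* but not in *Zscan4a* at 0 hr. *Usp17le* had 0.544 and 1.18 CPM and then 1.72 and 1.01 CPM in *Hdac3*+/+, against 1.34 and 0 CPM and then 0.967 and 0.099 CPM in *Hdac3*-/-, so that replicate 1 was the highest sample at 0 hr. More than 4-fold below replicate 1 at both times, also with 0 reads set to 3, were 3 of these 4 copies (*Zscan4a*, *Zscan4b* and *Usp17le*), beside the 0.285% of all genes. Of the windows of *Zscan4a* and *Zscan4b*, 39.1% and 78.7% also occurred in another gene, so their reads may be shared with other copies.

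Among known activators of the state, 1 of 5 passed the test at each time. Over all genes tested the share called was 6.14% at 0 hr and 5.1% at 24 hr. *Dux*, whose product binds the motif above, had 1.17 and 1.01 CPM and then 0.810 and 0.576 CPM in *Hdac3*+/+, against 0.876 and 0 CPM and then 0.879 and 0.197 CPM in *Hdac3*-/-, with a log2 fold change of -1.07 ± 0.90 at 0 hr (adjusted p = 0.483). *Dppa2*, which acts upstream of *Dux*, differed by -0.12 ± 0.14 (edgeR adjusted p = 0.629), and *Nelfa* by 0.27 ± 0.10 (edgeR adjusted p = 0.099). In *Hdac3*-/- *Dppa2* had 307 and 224 CPM and then 269 and 232 CPM, against 289 to 320 CPM in *Hdac3*+/+. *Dppa4* had 115 and 69.4 CPM and then 107 and 65.7 CPM, against 83.8 to 103 CPM. Replicate 2 of *Hdac3*-/- was the lowest sample at both times in these genes, but not in *Nelfa* (117 and 119 CPM and then 109 and 113 CPM). *Dppa3*, known from the oocyte and the early embryo, was the 1 activator of 5 called. It fell by 2.21 ± 0.13 on the log2 scale at 0 hr (adjusted p = 0.000331) and by 2.37 ± 0.14 at 24 hr (adjusted p = 0.000106), with 14.7 to 17.3 CPM in all 4 *Hdac3*-/- samples against 72.7 to 96.4 CPM. Unlike the members, *Dppa3* had similar values in the *Hdac3*-/- replicates. Of 17 known repressors of the state, 0 were called at either time, beside the same shares of all genes. At 0 hr 5 were under the adjusted p threshold but not past the fold. Of these *Tet1* was lower in *Hdac3*-/-, and *Ncl*, *Tet2*, *Kdm1a* and *Uhrf1* were higher. The share of all genes under this threshold without the fold was not counted. *Ncl* differed by 0.32 ± 0.07 at 0 hr (adjusted p = 0.0262) and *Trim28* by 0.285 ± 0.10 (adjusted p = 0.102).

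Other genes of the two-cell state were taken from a longer list. Of 46 listed, 43 were in the tables and 22 were tested at 0 hr, where 0 were called lower and 4 higher, against 2.58% of all genes called higher, and 4 of 26 at 24 hr, against 2.3%. The 4 were the same genes at both times. *Pramel6* had 11.0 and 10.9 CPM at 0 hr in *Hdac3*+/+ and 27.7 and 87.3 CPM in *Hdac3*-/- (log2 fold change 2.46 ± 0.47, adjusted p = 0.0152), and here replicate 2 was the higher one. *Tbx3*, a transcription factor also expressed in naive ESCs outside the two-cell state, rose by 1.24 ± 0.09 (adjusted p = 0.000483), *Pramef8* by 1.41 ± 0.15 (adjusted p = 0.002) and *Zfp365* by 1.41 ± 0.15 (adjusted p = 0.00197). With 0 reads set to 3, replicate 2 of *Hdac3*-/- lay more than 4-fold below replicate 1 at both times for 4 of 26 tested (*Gm5662*, *Gm12794*, *Tmem92* and *Sp110*), against 0.285% of all genes. With 0 reads taken as 0 the count was 10 of 26, against 0.655%, and *Dux* was among the 6 that rest on samples with 0 reads.

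**Figure D5:**
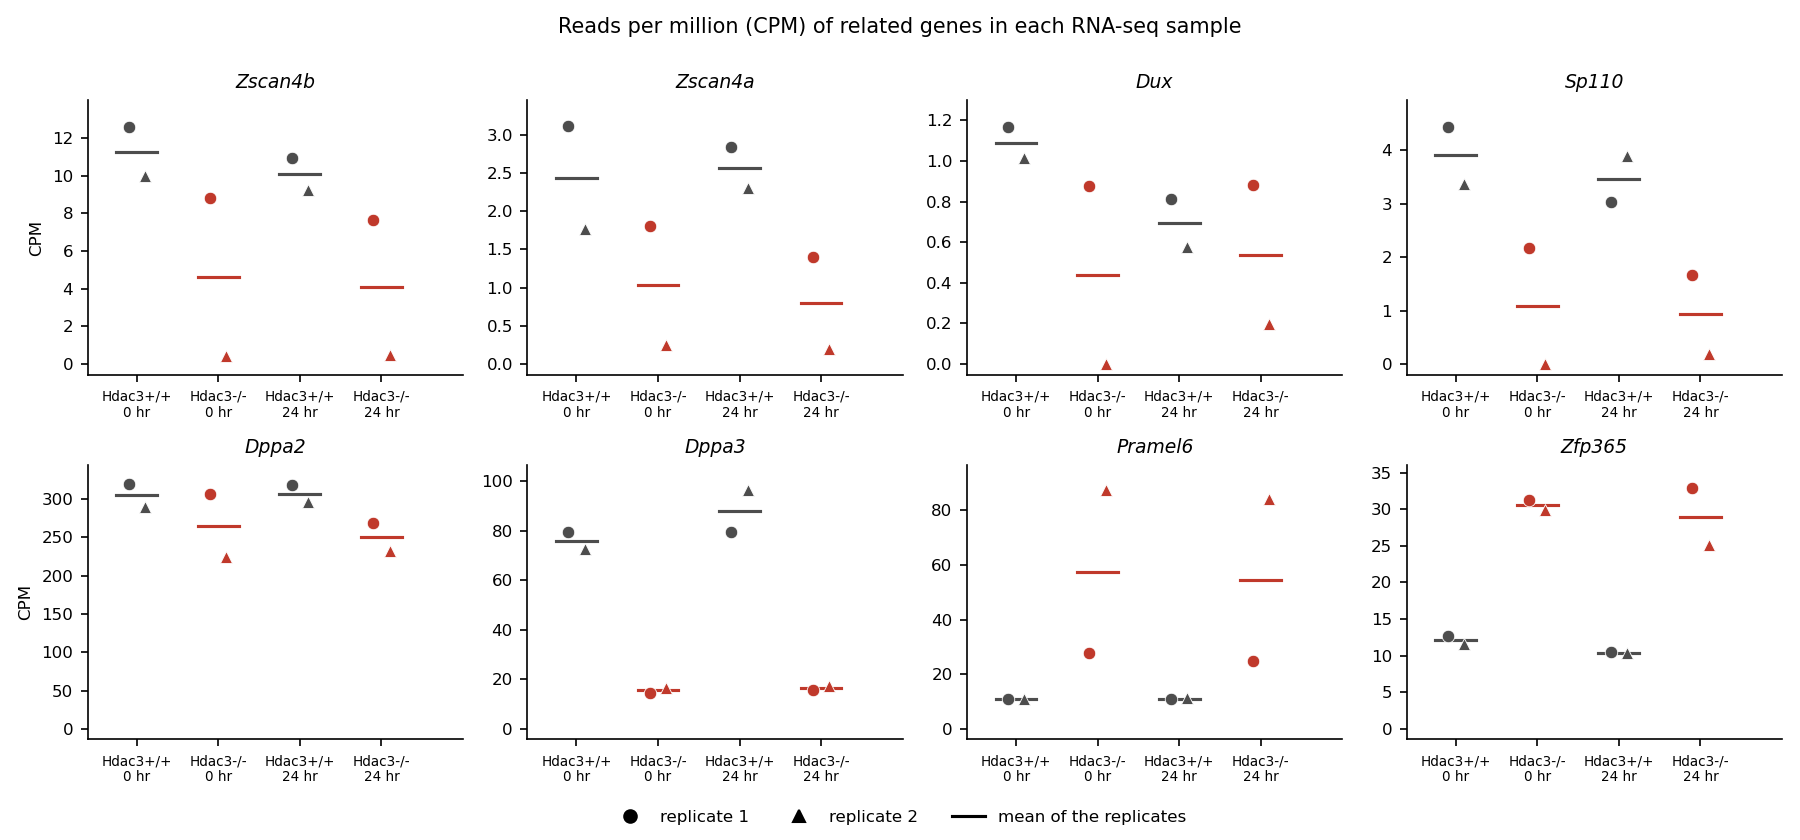
CPM of 8 related genes in the 8 samples, drawn as for the members, each panel with its own range. *Zscan4b*, *Zscan4a*, *Dux* and *Sp110* have the low replicate 2 of *Hdac3*-/- in common, *Dppa3* is at 14.7 to 17.3 CPM in all 4 *Hdac3*-/- samples, and *Pramel6* is highest in replicate 2.

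The genes whose profile over the 8 samples was most like the *Zscan4* sum, by Pearson's r of log2(CPM + 1) among 12767 genes with a mean CPM above 1, were *Ephb4* (0.995), *Txnip* (0.993), *Slc25a1* (0.992), *Sp110* (0.992) and *Tnk2* (0.990). The points share libraries and the split by genotype and replicate, so r is a description. *Sp110*, itself a gene of the two-cell list, had 3.04 to 4.43 CPM in *Hdac3*+/+, 2.16 and 1.67 CPM in replicate 1 of *Hdac3*-/- and 0 and 0.197 CPM in replicate 2. *Slc25a1*, the mitochondrial citrate carrier, had 236 to 252 CPM in *Hdac3*+/+, 167 and 162 CPM in replicate 1 and 78.0 and 78.4 CPM in replicate 2.

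Markers of other cell types were also read. The 3 germ cell markers *Dazl*, *Ddx4* and *Sycp3* were all called higher in *Hdac3*-/- at both times and summed to 498 to 552 CPM, against 59.2 to 83.2 CPM in *Hdac3*+/+. The fibroblast list (*Col1a1*, *Col1a2*, *Thy1*, *Vim*) summed to 94.5 to 120 CPM against 253 to 284 CPM, with *Vim* called lower. The lists for primitive endoderm (*Gata6*, *Gata4*, *Sox17*, *Pdgfra*), primed or mesoderm cells (*Fgf5*, *T*, *Otx2*, *Eomes*) and trophoblast (*Cdx2*, *Elf5*, *Krt8*, *Gata3*) had 0 genes called at either time (1, 3 and 3 tested) and sums of at most 5.72, 90.9 and 37.0 CPM. Over all genes tested, 3.56% were called lower and 2.58% higher at 0 hr, and 2.8% and 2.3% at 24 hr. Every marker had at least 1 read over the 8 samples. Their part in the values of the members was not tested.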

How the data were processed

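RNA-seq libraries (rRNA-depleted, paired-end) of 8 samples were analysed. The authors removed rRNA reads, mapped the rest with TopHat2 2.1.0 on mm10 with the refFlat annotation, keeping 1 alignment per read, and counted reads over exons by strand with featureCounts 1.5.1. The deposited counts per gene symbol are not normalized. Further columns hold counts of B6 and Cast reads and the d-score, a fraction that the authors made from those allelic counts and that was not used here. How reads common to several copies were placed is not given in the sources used here.

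Samples were grouped by the labels' genotype and time. edgeR 4.0.16 (R 4.3.3) quasi-likelihood tests with TMM factors were run on genes for which 2 or more samples of the fit exceeded a TPM of 1 (CPM above 1 for 660 symbols without an exon length). The comparison at 0 hr used its 4 samples (2 residual degrees of freedom), as in the study's methods, and the others all 8 (4 degrees of freedom). Adjusted p-values are over all genes tested. An SE is the log2 fold change over the root of the F statistic. Nothing in the labels says that the *Hdac3*+/+ replicates were separate cultures, so p-values measure the spread between these samples. Comparisons that share samples are not independent of one another.

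The members and gene lists were chosen with earlier results of these data known, and the comparison of the *Hdac3*-/- replicates was chosen after their values were seen, as were the counts with 0 reads set to 3 and those without the *Tcstv* genes. Named were all members, the genes called between genotypes at 0 hr in each list (up to 6, largest first), the 2 with the highest mean CPM per list, and the 5 genes most like the *Zscan4* sum. *Dux*, *Dppa4*, *Sp110*, *Tmem92*, *Usp17le*, *Nanog*, *Zfp42*, *Tet1*, *Tet2*, *Kdm1a*, *Uhrf1*, *Gm5662*, *Gm12794*, *Pramef25*, *Vim* and the germ cell markers were named after their values were seen. Alternatives were RLE factors, no low-count filter, filterByExpr, DESeq2 1.42.0, voom with limma 3.58.1, replicate blocks, other samples in the fit, family sums and leaving out each sample. The fits were tested on simulated data. Sequences and intervals were computed with Python 3.11.15, biopython 1.88 and scipy 1.17.1, and figures drawn with matplotlib 3.10.9.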

Additional observations from a re-analysis of the deposited data

How the results depend on the processing

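Of 690 log2 fold changes of single members and family sums under the alternatives, 605 kept their direction and their side of the threshold, 20 passed it only under an alternative and 65 changed sign. Without the low-count filter the members called numbered 2 at 0 hr (3.52% of all genes called lower) and 4 at 24 hr (2.85%). Leaving out each sample gave 0 to 5 members at 0 hr and 0 to 1 at 24 hr. The 5 came without replicate 1 of *Hdac3*-/- at 0 hr, where 6.9% of 13062 genes were called lower, and the 1 was *Zscan4d* without either *Hdac3*-/- sample of 0 hr and *Zscan4f* without replicate 1 of *Hdac3*-/- at 24 hr. Each of these calls at 24 hr came from a fit that left 1 sample in a group, so it is not read as a result about the members. In the other comparisons each alternative called 0 members. The cause was not tested.

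The labels do not say that a replicate number pairs samples, and with 2 numbers pairing was not decided. Deviations of same-numbered samples correlated at 0.755 between times in *Hdac3*-/-, 0.4 in *Hdac3*+/+ and 0.252 to 0.292 between genotypes over 11504 genes. With the replicate block 1 member was called at 24 hr (*Zfp352*, -2.29, edgeR adjusted p = 0.0488, beside 3.72% of all genes called lower) and 0 in the other comparisons, and the *Zscan4* sum passed at 0 hr (-1.758, edgeR adjusted p = 0.0441).

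Of the 65 sign changes, 10 came from other tools or no filter and the rest from leaving out a sample. For 24 hr against 0 hr in *Hdac3*+/+, DESeq2 gave 0.006 for *Zscan4d*, voom gave 0.003 for *Zscan4d*, 0.014 for *Tcstv3*, 0.032 for *Usp17lc* and 0.010 for *Usp17la* plus *Usp17lc*, and no filter gave 0.002 for the latter. In *Hdac3*-/- voom gave 0.670 for *Zscan4c* and 0.497 for *Zscan4d*, and in the interaction 0.671 and 0.494. Leaving out each sample, *Usp17la* ranged from -0.366 to 0.421 between genotypes at 0 hr and from -0.797 to 0.313 at 24 hr, and *Usp17la* plus *Usp17lc* from -2.111 to 0.116 at 0 hr. In *Hdac3*+/+ the time difference ranged from -0.481 to 0.535 for *Zscan4c*, -0.285 to 0.348 for *Zscan4d*, -0.692 to 0.334 for *Tcstv3*, -0.230 to 0.421 for *Usp17la*, -0.420 to 0.494 for *Usp17lc*, -0.248 to 0.113 for the *Zscan4* sum, -0.505 to 0.332 for the *Tcstv* sum and -0.158 to 0.178 for the *Usp17l* sum. In *Hdac3*-/- it ranged from -2.364 to 5.925 for *Zscan4c*, -2.009 to 4.860 for *Zscan4d*, -3.778 to 1.769 for *Zscan4f*, -2.887 to 2.329 for *Tcstv3*, -0.675 to 0.909 for *Usp17la*, -5.962 to 1.977 for *Usp17lc*, -2.857 to 2.646 for the *Zscan4* sum, -3.774 to 3.176 for the *Tcstv* sum and -1.664 to 1.229 for the *Usp17l* sum. The interaction ranged from -2.291 to 5.998, -1.988 to 4.880, -3.638 to 1.908, -2.860 to 2.356, -0.735 to 0.849, -5.909 to 2.030, -2.768 to 2.735, -3.646 to 3.302 and -1.652 to 1.241 for the same genes and sums in that order, and from -2.076 to 0.551 for *Zfp352*.

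Over all genes, 826 were called at 0 hr and 716 at 24 hr. Leaving out each sample gave 293 to 1254 at 0 hr (lowest without replicate 1 of *Hdac3*+/+, highest without replicate 1 of *Hdac3*-/-) and 294 to 808 at 24 hr, and no filter gave 1136 at 24 hr. For 24 hr against 0 hr 8 genes were called in *Hdac3*+/+ (2 to 101 over the alternatives) and 2 in *Hdac3*-/- (1 to 12), and the interaction called 0 (0 to 16).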

Other observations

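Among the other genes of the two-cell list, *Tmem92* differed from the *Zscan4* genes in replicate 1 of *Hdac3*-/-, with 3.74 CPM at 0 hr and 4.75 CPM at 24 hr against 2.61 to 2.88 CPM in the *Hdac3*+/+ samples, and it had 0.083 and 0.296 CPM in replicate 2. *Gm12794* had 3.27 and 3.43 CPM in replicate 1 and 0.332 and 0.591 CPM in replicate 2, against 2.31 to 5.06 CPM in *Hdac3*+/+, and *Pramef25* had 1.11 and 1.14 CPM against 0 and 0 CPM. These genes were chosen after their values were seen and no difference was tested.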
